A study of Drosophila melanogaster with 24 samples.

Results

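The regions described here are places in the genome of the Drosophila wing where the transcription factor E93 was recovered by ChIP-seq at 24 h after puparium formation and where the chromatin was open in the larval wing, at 24 h and in an E93 mutant. They were chosen by peak calls. A region is an E93 ChIP-seq peak that overlaps by at least 1 bp a FAIRE-seq peak of the wild-type larval wing (L3), a peak of the wild-type wing at 24 h and a peak of the E93 mutant wing at 24 h. Of the 8477 ChIP-seq peaks, 6460 (76.2%) fulfilled the rule. This share follows from the rule and is a description. The rule does not ask for a peak at 44 h or in the mutant at L3, and 4940 of the 6460 regions (76.5%, exact 95% binomial interval 75.4% to 77.5%) had a peak in all 6 FAIRE-seq lists. "Open at all times" therefore holds for these 4940, and the whole set is called the bound regions open at L3 and 24 h, or the bound regions.

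E93 (Eip93F) encodes a DNA-binding protein with a pipsqueak domain that is induced by the steroid hormone ecdysone during metamorphosis. It is known for directing the change from larval and pupal to adult programs in many insect tissues. In the wing, E93 is expressed after puparium formation, while proliferating disc cells give way to cells that leave the cell cycle and form the adult blade. FAIRE-seq recovers DNA that is not crosslinked to nucleosomes, so its reads pile up at open regulatory elements such as promoters and enhancers. A region open in the larval wing is thus accessible before the pupal rise of E93.

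Wild-type wings (w1118/y,w, hs-FLP) were assayed by FAIRE-seq at 3 stages, namely L3 discs, 24 h wings and 44 h wings, in 3 replicates each. E93 mutant wings carried the allele E93-4 over the deficiency Df(3R)93FX2 and were assayed at the same stages with 2 replicates each. All FAIRE-seq wings came from females, and at least 40 wings entered each sample. The ChIP-seq had 2 replicates of 24 h wings of both sexes with 1 Eip93F copy tagged by the GFSTF protein trap (yw/+; + ; Mi{MIC}Eip93F/+), so that an untagged copy was also present. GFP was the antibody's target. A control of genomic DNA came from adult OregonR females. The authors pooled the replicates of each condition before calling peaks, so there is 1 list per condition, the spread between replicates is unknown, and no test across samples was possible. Intervals below are 95% intervals, exact for shares and medians and derived from these or from counts for differences. They cover counting error only. Neighbouring regions can lie in 1 open stretch and are not replicates of a condition.

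The lists held 39525 peaks for wild-type L3, 29731 for 24 h and 28684 for 44 h, against 28216, 26239 and 22786 for the mutant. The number of reads behind them is not given in the sources used here. The pileup, which is the height of stacked reads at a peak's summit, moved in steps of 1.00 in the wild-type L3 list and the 3 mutant lists, but in steps of 0.580, 0.700 and 0.490 in the wild-type 24 h, wild-type 44 h and ChIP-seq lists. Pileups of different lists are therefore not on 1 scale, and each was turned into a percentile within its own list, with 100 as the highest. The peaks of the mutant L3 list are named for 0 h of pupal life, which disagrees with the label, and statements on the mutant at L3 carry that doubt. Coordinates are those of the peak lists. The labels name the build dm3 for all samples. Yet the control reads run past the furthest peak by 3.58 Mb on 3L, 4.15 Mb on 2R and 4.18 Mb on 3R. Peaks and control reads thus do not share coordinates on these arms. The excess was 1.12 Mb on X and 0.550 Mb on 2L.

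The bound regions spanned the whole E93 list and were on average higher in it than the other ChIP-seq peaks. Their ChIP-seq pileup ranged from 23.2 to 119, with quartiles of 32.5 and 54.2 and a median of 39.9, and the other 2017 ChIP-seq peaks had a median of 34.0. The median percentile in the ChIP-seq list was 55.0 (53.6 to 56.2) for the bound regions and 34.6 (32.7 to 36.6) for the other peaks. Of the 100 strongest ChIP-seq peaks 99 belonged to the set, and of the 1000 strongest 927. With the ChIP-seq list cut into 10 parts of nearly equal size, the share in the set went from 60.0% in the lowest part to 93.5% in the highest. The regions were also longer, with a median of 309 bp and quartiles of 207 and 480 bp, where the other peaks had a median of 215 bp. Length and pileup went together across the bound regions, with a Spearman's rho of 0.70 over 6460 regions. Both are read from the same ChIP-seq reads.

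The remaining ChIP-seq peaks fell into 7 patterns of the same 3 FAIRE-seq lists. Absent at L3 but open at 24 h in both genotypes were 714 peaks, with a median ChIP-seq percentile of 47.0 (44.5 to 50.8). A further 695 were open at 24 h in the wild type alone, with a median of 34.6 (30.7 to 36.6). Another 248 were open at L3 and 24 h in the wild type but had no peak in the 24 h mutant, with a median of 26.3 (22.1 to 30.7). No FAIRE-seq peak of the 3 lists was found at 185 peaks, whose median was 19.9 (17.6 to 26.3). Of the 8 patterns, the bound regions open at L3 and 24 h thus had the highest median.

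The strongest ChIP-seq peak of all, from 7422385 to 7422846 on 2L, belonged to the set and had a pileup of 119. Its open chromatin was among the strongest of every list. In the wild type its FAIRE-seq pileup came to 191 (L3), 120 (24 h) and 130 (44 h), which are percentiles of 99.9, 98.2 and 95.8. In the mutant it came to 146, 134 and 107, at percentiles of 99.8, 99.0 and 98.6. The region from 2434371 to 2435436 on 2R came second with a ChIP-seq pileup of 117. It stood at percentiles of 94.2, 89.7 and 78.2 in the wild-type lists and of 89.3, 93.1 and 84.3 in the mutant lists, in the order L3, 24 h and 44 h. The third, from 5626062 to 5626838 on 3L with a pileup of 116, differed from both. It stood at the 99.3 and 99.2 percentile in the wild type at L3 and 24 h and had no 44 h peak in either genotype. Both wild-type values belong to FAIRE-seq peaks of 1415 and 1575 bp whose summits lie outside the region and which overlap 3 E93 peaks each.

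A few regions were strong in every list. The best placed by its lowest rank, from 13529377 to 13531019 on 3R, ranked between 31 and 170.5 in all 7 lists, where tied pileups share a mean rank. Next to it on the same arm, the region from 13526457 to 13527734 ranked between 8.5 and 316.5. The region from 7081709 to 7082270 on 2R ranked between 11.5 and 190 and held rank 26.5 in the mutant at 24 h against 138.5 in the wild type.

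The summits of E93 peaks and of the FAIRE-seq peaks that overlapped them were near each other. Distances were taken only where the peaks overlapped, so short distances follow in part from the rule and are a description. In the wild-type 24 h list the summits were a median of 95 bp apart, with quartiles of 37.0 and 195 bp, and 97.2% of the ChIP-seq summits lay inside the FAIRE-seq peak. The distance had a median of 86.5 bp at L3, 98.0 bp at 44 h and 83.0 bp in the mutant at 24 h. Summits at most 100 bp apart made up 56.7% (55.5% to 57.9%) in the 24 h mutant and 51.9% (50.6% to 53.1%) in the 24 h wild type. The shares were 54.5% (mutant) and 54.4% (wild type) at L3, and 55.8% and 50.8% at 44 h. At 24 h the FAIRE-seq peaks at the regions were also shorter in the mutant, with a median of 506 bp against 572 bp. The bound regions overlapped 6160 wild-type 24 h peaks. Of these 487 held more than 1 bound region, and the most in a single peak was 4. The gap to the next bound region had a median of 3324 bp, and 32.8% of the gaps were under 1000 bp. By windows of 100 kb, 978 windows held at least 1 region, with a median of 5 and at most 37 between 14100001 and 14200000 on 2R, where 43 ChIP-seq peaks lay in all.

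The FAIRE-seq peaks at the bound regions were for the most part in the upper part of their lists. At L3 their wild-type FAIRE-seq peaks had a median percentile of 87.3 (86.8 to 87.8), at 24 h of 83.4 (83.0 to 84.1) and at 44 h of 78.5 (77.4 to 79.2). In the mutant the medians were 83.7 (82.8 to 84.1), 82.9 (82.1 to 83.7) and 76.0 (75.2 to 77.3). As the L3, wild-type 24 h and mutant 24 h lists chose the regions, their values are a description. Lists of unequal length also place the same peak at different percentiles. Percentiles above 75 were held by 73.5% of the regions at L3, 64.0% at 24 h and 54.5% of those with a peak at 44 h. Percentiles of 25 or less were held by 2.04%, 2.66% and 9.0%. The FAIRE-seq peaks were long, with a median of 572 bp at 24 h where all peaks of that list had 272 bp.

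**Figure D1:**
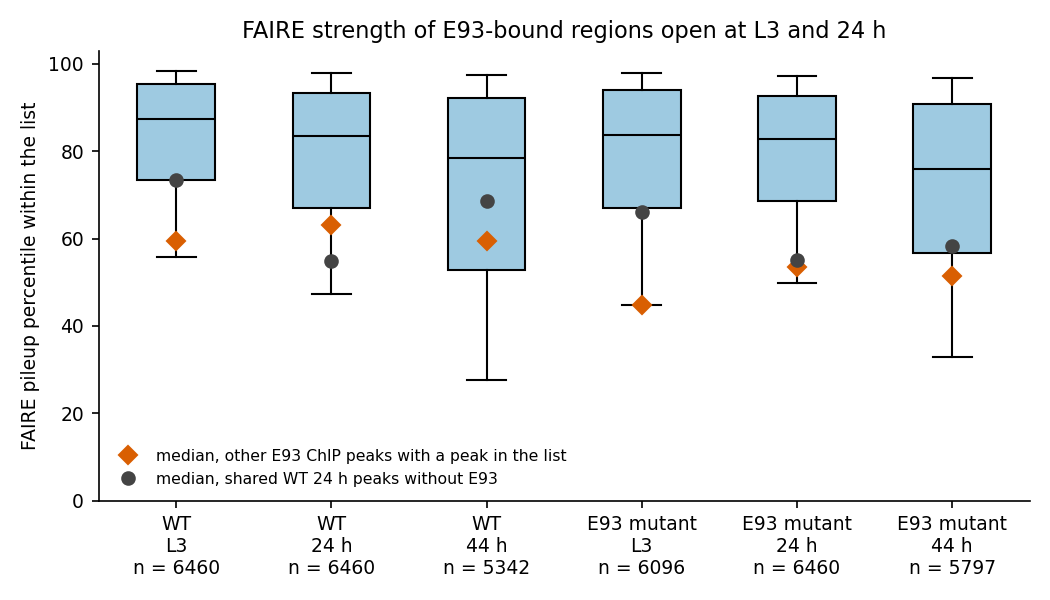
FAIRE-seq pileup percentile within each of the 6 lists (y axis) of the bound regions with a peak there, with boxes from the lower to the upper quartile, a line at the median and whiskers from the 10th to the 90th percentile of the regions. Medians of the bound regions lie between 76.0 and 87.3, above those of the other E93 ChIP-seq peaks (diamonds) and of the shared wild-type 24 h peaks without E93 (circles) in each list.

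The 44 h lists were not used to choose the regions. A wild-type 44 h peak was found at 5342 of the 6460 bound regions, or 82.7% (81.7% to 83.6%), against 75.9% of all ChIP-seq peaks and 69.1% of all wild-type 24 h peaks. A mutant 44 h peak was found at 5797, or 89.7% (89.0% to 90.5%), against 78.8% of all ChIP-seq peaks and 59.0% of all wild-type 24 h peaks. The mutant list was the shorter of the pair, yet it held more of the bound regions. The rule, however, asked for a 24 h peak in both genotypes. The 248 E93 peaks open at L3 that lacked only the 24 h mutant peak were found at 44 h in 66.9% (wild type) and 43.1% (mutant). For the 92 that lacked only the 24 h wild-type peak these shares were 37.0% and 53.3%. A peak in the mutant L3 list was found at 6096, or 94.4% (93.8% to 94.9%), where all ChIP-seq peaks had 76.9%. Among the E93-bound peaks absent at L3, by contrast, the mutant 44 h list held 67.9% (64.4% to 71.3%) of the 714 open in the 24 h mutant and 28.6% (25.3% to 32.2%) of the 695 that were not, and the wild-type 44 h list held 64.8% and 52.7%.

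Both genotypes had a 44 h peak at 5170 bound regions. A 44 h peak in the mutant alone was found at 627 regions (9.71%) and one in the wild type alone at 172 (2.66%), while 491 regions (7.60%) had none. The difference between mutant and wild type came to 7.04 percentage points (6.30 to 7.74), and to between 6.65 and 14.8 points under the alternatives tried, which for this difference were chosen after seeing the data. It had the same direction on each of the 5 large arms, from 67 against 17 regions on X to 160 against 44 on 3L. The mutant and wild-type libraries also differ in the number of replicates and in strain, and their 44 h lists in pileup scale and lowest pileup. The part of these in the difference was not tested. All alternatives kept the 24 h mutant list in the rule, so its part was not tested either.

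The 627 regions with a 44 h peak in the mutant alone were no weaker as E93 peaks than the rest. Their median ChIP-seq percentile was 58.7 (55.0 to 63.1), against 56.8 (55.0 to 57.5) for the 5170 found in both genotypes. Their FAIRE-seq percentile was 84.0 (82.1 to 86.5) at L3 and 73.4 (71.7 to 75.7) at 24 h in the wild type, and 81.3 (79.8 to 82.9) at 24 h in the mutant. They were thus lower in the 24 h wild-type list than in the 24 h mutant list. The regions were picked by their 44 h peaks, and the 24 h and 44 h pileups of a genotype are correlated. Across the bound regions this rho was 0.44 in the wild type and 0.63 in the mutant. The order at 24 h can therefore follow from the choice and is no result on the mutant. The 44 h mutant peaks at these regions had a median percentile of 39.5 (36.4 to 42.2), below the 80.3 of the regions found in both genotypes. The 172 regions found in the wild type alone had lower medians, with 38.6 (34.6 to 44.5) for the ChIP-seq, 64.8 (58.7 to 70.8) in the 24 h wild type and 51.8 (47.7 to 56.7) in the 24 h mutant. The 491 regions with no 44 h peak stood at 76.4 at L3, 65.0 in the 24 h wild type and 64.0 in the 24 h mutant.

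Individual regions show these groups, and values from a wide FAIRE-seq peak that overlaps another E93 peak and has its summit outside the region are named as taken from joint peaks. From 428931 to 430658 on 2L lay the strongest E93 peak among those with a 44 h peak in the mutant alone, with a ChIP-seq pileup of 115. Its FAIRE-seq percentile was 96.5 at L3 and 98.2 at 24 h in the wild type, with no peak at 44 h, and 94.4, 92.9 and 55.0 at the 3 stages in the mutant. The region from 20795912 to 20797216 on 3R, with a ChIP-seq pileup of 111, was alike, at 89.4 and 96.8 and then no peak in the wild type, and at 89.3, 99.2 and 58.3 in the mutant. In both regions the mutant peak at 44 h was in the middle of its list. Among regions with a 44 h peak in the wild type alone, the one from 3154999 to 3155644 on 2L led with a ChIP-seq pileup of 99.6. Its wild-type percentiles were 71.4, 96.8 and 51.5, and its mutant percentiles were 59.7 at L3 and 85.0 at 24 h, with both 24 h values taken from joint peaks. The region from 5054580 to 5054889 on 3R followed, with 79.6, 81.8 and 40.1 in the wild type and with 94.4 and 91.0 in the mutant, the latter from joint peaks. Among the regions with no 44 h peak, that on 3L named above led. Second was 2L from 8905854 to 8906374, with a ChIP-seq pileup of 112. It stood at 68.9 at L3 and 91.1 at 24 h in the wild type, and at 88.5 and 92.9 in the mutant, the latter from joint peaks. The next, from 8816786 to 8817157 on 3L, stood at 71.4 and 78.0 in the wild type and at 61.2 and 90.1 in the mutant.

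To compare 44 h presence with and without E93 binding, wild-type 24 h FAIRE-seq peaks that were also open at L3 and in the 24 h mutant were split by overlap with an E93 peak. Of these shared peaks 6210 had an E93 peak and 11066 had none. Over all of them, 83.9% (83.0% to 84.8%) of the bound and 77.0% (76.2% to 77.8%) of the unbound had a wild-type 44 h peak. This difference of 6.90 points (5.68 to 8.11) turned to -3.22 with a −log10 q of at least 10. Where overlaps had to cover 50% or more of each peak it was -0.235, with an interval of -2.28 to 1.79 that spans 0. The bound ones were stronger, with a median 24 h percentile of 81.8 against 54.8, and longer, with a median of 543 bp against 284 bp. The part of length in these shares was not tested. The direction turned within the upper parts of the 24 h list, cut into 4 parts of nearly equal size by pileup. In the third part from the bottom 77.0% (74.9% to 79.0%) of 1640 bound and 84.4% (83.1% to 85.7%) of 3083 unbound peaks had a wild-type 44 h peak. In the highest part the shares were 90.6% (89.6% to 91.5%) of 3783 and 95.9% (95.1% to 96.6%) of 3014. The lower 2 parts, with 201 and 586 bound peaks, gave intervals that overlapped. In the mutant 44 h list the third part had 86.2% (84.5% to 87.9%) of bound against 82.1% (80.7% to 83.4%) of unbound peaks. The highest part had 96.0% (95.3% to 96.6%) against 96.5% (95.8% to 97.1%), and these intervals overlap.

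The difference between genotypes at 44 h was also compared between shared peaks with and without an E93 peak of the tagged 24 h wings. Among bound shared peaks 572 had a 44 h peak in the mutant alone and 156 in the wild type alone. Among unbound shared peaks the numbers were 935 and 972, so the difference in percent with a 44 h peak was 6.70 points for bound and -0.334 points (-1.12 to 0.448) for unbound peaks. In the 4 parts of the 24 h list from the lowest, the mutant was higher by 8.96, 7.17, 9.21 and 5.42 points at bound peaks. At unbound peaks the differences were 1.13, -0.337, -2.37 and 0.630 points. With equal list sizes both values were above 0, at 12.0 points for the bound regions and 5.04 points for unbound peaks. The value at unbound peaks was also above 0 with the stricter overlap, at 4.12 points, and with summits at most 250 bp apart, at 2.12 points. The difference between bound and unbound was not tested across samples, since each condition has 1 list.

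**Figure D2:**
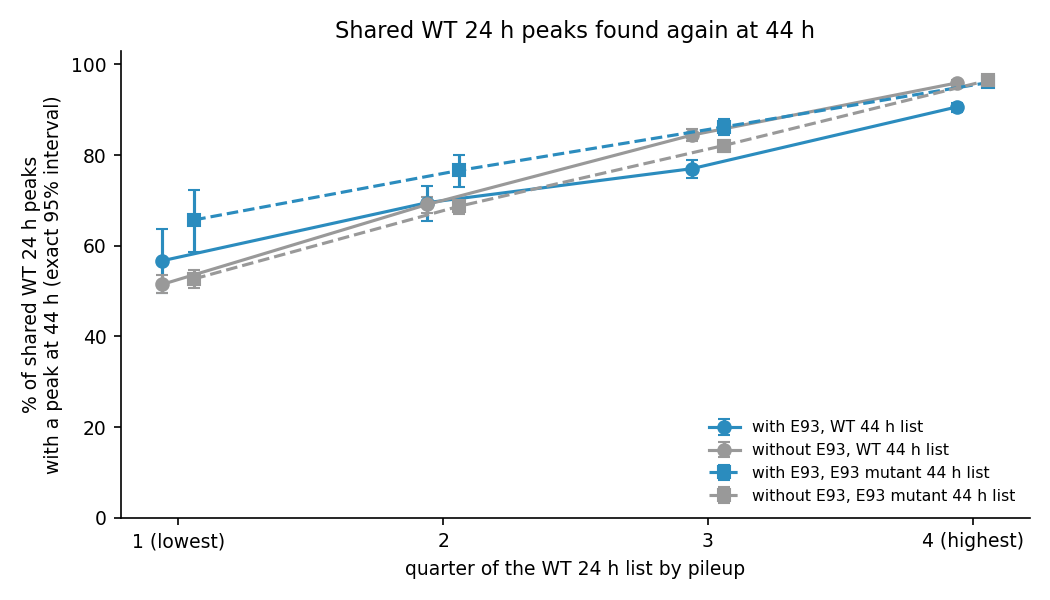
Percent of shared wild-type 24 h FAIRE-seq peaks that had a peak at 44 h (y axis, exact 95% intervals) by part of the wild-type 24 h list by pileup (x axis, 4 the highest), for peaks with E93 (blue) and without (grey), in the wild-type list (circles, solid) and the mutant list (squares, dashed). In the highest part bound peaks reached 90.6% in the wild type, where the other 3 values were between 95.9% and 96.5%.

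E93 signal and the 44 h shares were compared over the 10 parts of the ChIP-seq list. The share of bound regions with a wild-type 44 h peak was between 80.6% and 85.6% in all parts, with no steady order. In the mutant it was between 85.8% and 87.0% in the lower 5 parts and between 90.5% and 94.6% in the upper 5. The difference was largest in the upper 2 parts, with 11.7 and 9.01 points, and between 4.24 and 7.59 points in the others. Over the same parts the median FAIRE-seq percentile went from 68.1 to 92.8 in the 24 h wild type and from 71.1 to 92.6 in the 24 h mutant. Across the bound regions, ChIP-seq pileup had a rho of 0.35 with FAIRE-seq pileup of the wild type at 24 h and of 0.34 with that of the mutant at 24 h, over 6460 regions, and of 0.20 with that of L3. With the 44 h lists rho was 0.11 in the wild type (5342 regions) and 0.16 in the mutant (5797). These values are a description, since the rule kept only E93 peaks that were open in both 24 h lists, and they share the positions of the ChIP-seq peaks.

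**Figure D3:**
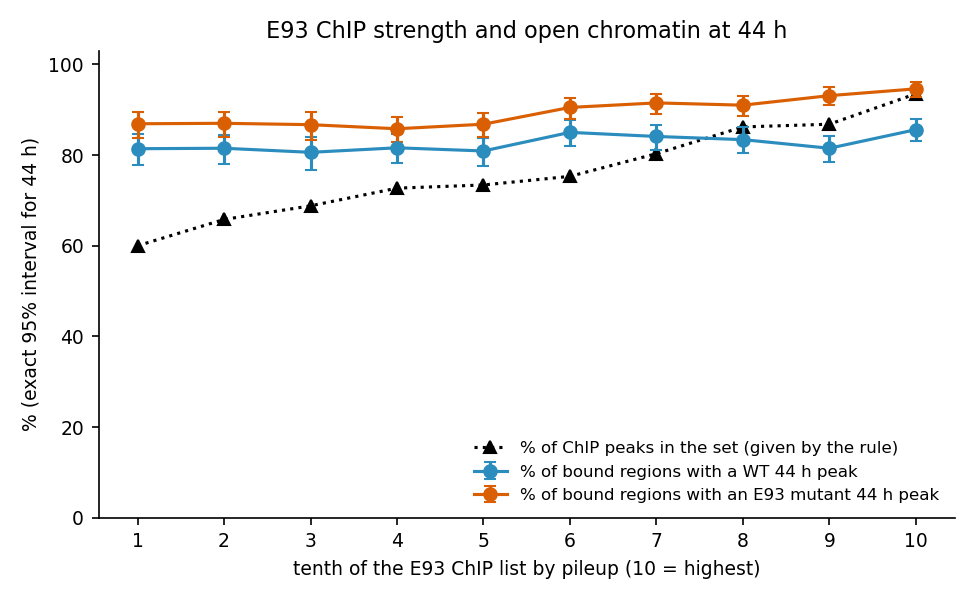
Percent (y axis) by part of the E93 ChIP-seq list (x axis, 10 parts by pileup, 10 the highest), for ChIP-seq peaks in the set (triangles, given by the rule) and for bound regions with a 44 h peak in the wild type (blue) or the mutant (orange), with exact 95% intervals. The mutant lies above the wild type in each part, by 4.24 to 11.7 points.

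The order of the bound regions by openness was nearly the same in both genotypes at L3, with a rho of 0.94 over 6096 regions. It was less alike between stages in the wild type, where rho was 0.47 between L3 and 24 h (6460 regions) and 0.44 between 24 h and 44 h (5342). The 24 h mutant stood closer to the larval order, with 0.72 against wild-type L3 and 0.64 against wild-type 24 h. At 44 h the genotypes had a rho of 0.73 over 5170 regions. Over the 4940 regions with a peak in all 6 lists these values were 0.95, 0.49, 0.43, 0.74, 0.64 and 0.73. Unbound shared peaks gave 0.72 between wild-type L3 and the 24 h mutant and 0.65 between the genotypes at 24 h, close to the values of the bound regions. The wild-type L3 and 24 h mutant lists both had pileup steps of 1.00, and the wild-type 24 h list had steps of 0.580. The part of list processing in these correlations was not tested. Between 24 h and 44 h in the wild type, unbound peaks had a rho of 0.64 where bound shared peaks had 0.44. Over the 4 parts of the 24 h list from the lowest, it was 0.19, 0.11, 0.31 and 0.56 for unbound and 0.03, 0.10, 0.10 and 0.33 for bound peaks. Between the mutant's 24 h and 44 h lists it was 0.34, 0.31, 0.52 and 0.82 for unbound and 0.41, 0.44, 0.40 and 0.60 for bound peaks, so bound peaks had the higher rho in the lower 2 parts and the lower rho in the upper 2.

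Differences between stages were then followed on a percentile within the bound regions. At L3 and 24 h in the wild type and at 24 h in the mutant it ranks all 6460, and in the other lists only those with a peak. At 24 h 1176 regions (18.2%) stood at least 25 points higher in the wild type than at L3, and 1122 (17.4%) stood at least 25 points lower. These groups were chosen from the wild-type L3 and 24 h values, so their wild-type course is a description. The higher group had medians of 20.3 at L3 and 70.8 at 24 h in the wild type. In the mutant it had 19.8 at L3 and 43.0 at 24 h. The lower group had 68.0 and 21.0 in the wild type, and 64.9 and 50.9 in the mutant. As the groups were picked for a wide gap between the wild-type L3 and 24 h lists, a median between these follows from the choice in any partly correlated list and is no result on the mutant. Unbound shared peaks grouped in the same way had medians of 39.8 and 49.6 in the 24 h mutant. Among the regions with a 44 h peak, a different subset in each genotype, the higher group had medians of 46.5 in the wild type and 42.9 in the mutant, and the lower group 37.2 and 41.8.

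**Figure D4:**
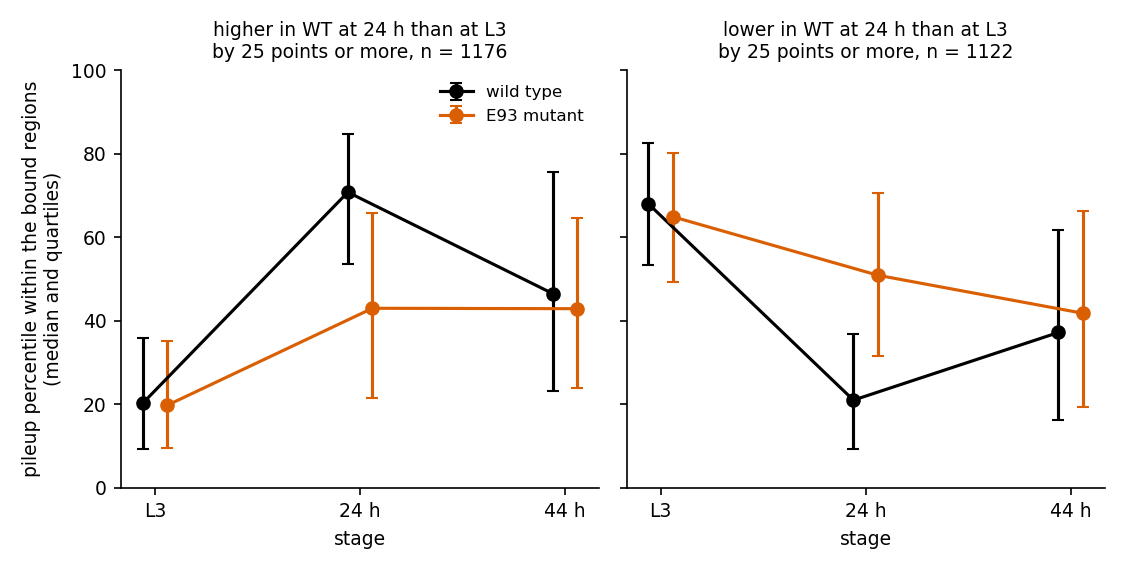
FAIRE-seq pileup percentile within the bound regions (y axis, median with quartiles) at L3, 24 h and 44 h (x axis) in wild type (black) and E93 mutant (orange), for regions at least 25 points higher (left) or lower (right) in the wild type at 24 h than at L3. The wild-type L3 and 24 h values chose the groups. The mutant medians are 43.0 and 50.9 at 24 h, and 44 h points cover only regions with a 44 h peak.

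The higher group held the stronger E93 peaks, with a median ChIP-seq percentile of 67.6 against 47.8 in the lower group. ChIP-seq pileup had a rho of 0.35 with the wild-type 24 h pileup and of 0.20 with that of L3. This order can therefore follow from the choice of the groups and is a description, as are their 44 h shares. A wild-type 44 h peak was found at 83.2% (80.9% to 85.3%) of the higher and 75% (72.3% to 77.5%) of the lower group. A mutant 44 h peak was found at 90.6% (88.7% to 92.2%) and 86.4% (84.2% to 88.3%). The 4162 regions in neither group had 84.6% (83.5% to 85.7%) in the wild type and 90.4% (89.5% to 91.3%) in the mutant. Their shares were thus close to those of the higher group. The mutant was ahead in the higher group, with 115 regions in the mutant alone against 28 in the wild type alone. It was also ahead in the lower group, with 167 against 39. Unbound shared peaks grouped in the same way had a wild-type 44 h peak at 85.8% (higher) and 58.6% (lower). They had a mutant 44 h peak at 78.7% and 65.9%, so the mutant was behind in the higher group and ahead in the lower. Over all bound regions the mutant at 24 h was nearer to wild-type L3 than to wild-type 24 h in 56.7% (55.5% to 57.9%), and over unbound shared peaks in 55.3% (54.4% to 56.2%). The unlike pileup steps of these lists apply here too, and their part was not tested.

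A region takes the pileup of the FAIRE-seq peak it overlaps, and a wide peak can have its summit at another E93 peak. In at least 1 of the 3 lists of the rule, 1467 regions (22.7%) overlapped a FAIRE-seq peak that also overlapped another ChIP-seq peak. This share was 25.1% (22.6% to 27.7%) in the higher and 23.4% (20.9% to 25.9%) in the lower group. Without these regions, an alternative chosen after seeing the data, 17.6% of the remaining 4993 were in the higher group and 17.2% in the lower. The rank correlations L3 to 24 h (0.47), L3 to mutant 24 h (0.72) and between the genotypes at 24 h (0.64) had the same values without them. Regions whose FAIRE-seq peak overlapped no other ChIP-seq peak but had its summit outside the region were kept. The part of such peaks in the groups was not tested.

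The single regions with the widest gaps turned on such wide peaks. By percentile within the bound regions, 2L from 5293427 to 5293684 had the largest drop from L3 (99.6) to 24 h (2.35) in the wild type, and the mutant at 24 h stood at 95.8. Its pileup was 192 and 34.2 in the wild type and 143 and 133 in the mutant, with no 44 h peak in either. At wild-type L3 and in both mutant lists the value belongs to a peak of 826 to 1803 bp that overlaps 2 or 3 E93 peaks and has its summit outside the region. In the 24 h wild type the region had a peak of its own of 264 bp. The neighbouring bound region, from 5292854 to 5293262 (peak_425), stood at list percentiles of 99.9, 97.5 and 17.0 in the wild type and 99.7, 98.9 and 79.7 in the mutant. The gap thus goes with 1 joint peak in some lists and separate peaks in another. The region from 18563220 to 18563390 on 2R was alike, with pileups of 180 and 39.4 in the wild type and 143 and 132 in the mutant, from joint peaks of 1625 to 1757 bp and a 24 h wild-type peak of 169 bp. The second largest drop, at 2L from 11964749 to 11964875, went from a pileup of 173 in a peak of 1409 bp to 26.0 in a peak of 200 bp. In the mutant this region had peaks of its own of 254 to 286 bp, with pileups of 29.0, 42.0 and 25, so its genotypes cannot be compared by these values.

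The contrasts of the other sign had the same feature. The region from 20326567 to 20327029 on 2L had a pileup of 24.0 at wild-type L3, in a peak of 211 bp, and of 122 at 24 h, in a peak of 1125 bp that overlaps 2 E93 peaks. The mutant had 16.0 in a peak of 125 bp and 130 in a joint peak of 1114 bp. The 24 h wild-type summit lies inside the region and the 24 h mutant summit outside it. The region from 2183173 to 2183386 on 2L shared its FAIRE-seq peak with a second E93 peak in each list where it had one, and went from a list percentile of 39.3 to 99.5 in the wild type and from 56.4 to 89.5 in the mutant. Lower in the mutant at 24 h were 3L from 20926370 to 20926530, with pileups of 126 and 15.0, and 2R from 3179224 to 3179580, with 121 and 19.0. Both wild-type values belong to joint peaks, of 1945 and 2280 bp, with summits outside the regions, while the mutant peaks measure 151 and 280 bp.

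Longer bound regions had higher FAIRE-seq percentiles at 24 h, with smaller differences at L3 and in the wild type at 44 h. From the shortest of 4 parts by length (125 to 207 bp) to the longest (481 to 3503 bp), the median FAIRE-seq percentile went from 75.7 to 91.1 in the 24 h wild type and from 76.3 to 89.8 in the 24 h mutant, but from 86.0 to 89.4 at L3 and from 77.8 to 80.0 in the 44 h wild type. The share with a 44 h peak went from 80.7% to 87.3% in the wild type and from 86.4% to 94.0% in the mutant. A longer region can overlap more FAIRE-seq peaks by 1 bp or more and takes the highest of them. The part of this in the percentiles and shares was not tested.

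The bound regions were spread over all 6 chromosome arms of the lists. They numbered 1132 on 2L, 1401 on 2R, 1468 on 3L, 1601 on 3R, 849 on X and 9 on chromosome 4. Per arm, between 73.9% and 79.1% of the ChIP-seq peaks of the large arms belonged to the set, and all 9 of chromosome 4 did, with an interval of 66.4% to 100%. The X chromosome held 13.1% of the bound regions but 17.7% of the wild-type 24 h peaks. Of the shared wild-type 24 h peaks, 26.0% (24.5% to 27.6%) had an E93 peak on X, against 35.9% to 39.9% on the 4 large autosomal arms. The ChIP-seq wings came from both sexes and the FAIRE-seq wings from females, and males have a single X, so a lower recovery of X in the ChIP-seq and less E93 there cannot be told apart. Bound regions on X were not weaker than elsewhere, with a median ChIP-seq percentile of 57.5 (53.6 to 61.0) where the other large arms had 50.8 to 61.0. Their share with a wild-type 44 h peak was 86.3% (83.8% to 88.6%), against 80.3% to 83.8% on the other large arms. Over the large arms the mutant share was between 88.5% and 92.2%.

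**Figure D5:**
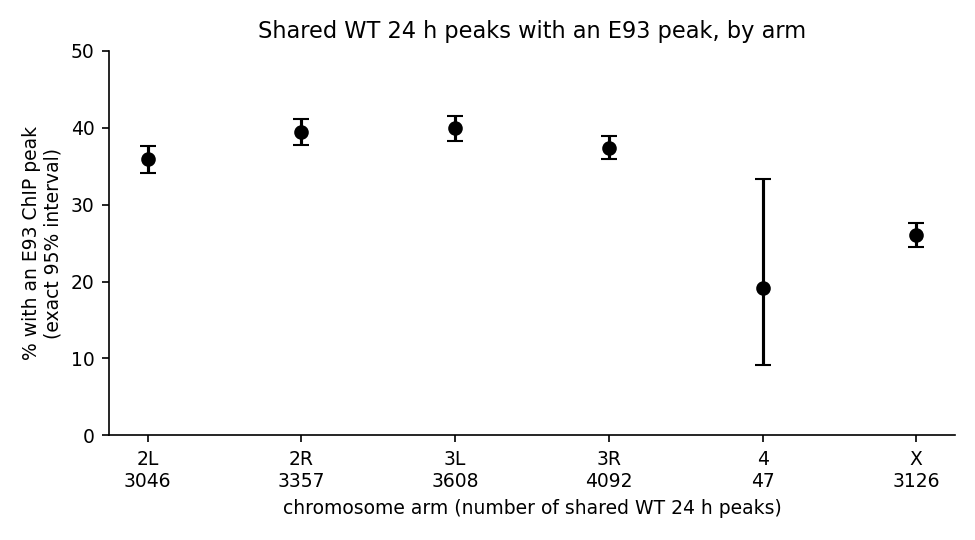
Percent of shared wild-type 24 h FAIRE-seq peaks with an E93 ChIP-seq peak (y axis, exact 95% interval) by chromosome arm (x axis, with the number of shared peaks). X has 26.0%, and the 4 large autosomal arms have 35.9% to 39.9%.

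At the edge of the rule, 43 bound regions overlapped the FAIRE-seq peak of at least 1 of the 3 lists by under 20 bp, and 32 ChIP-seq peaks missed the rule by a gap under 20 bp. The median of the smallest overlap was 239 bp. The region from 27526814 to 27526963 on 3R was included through 1 bp of the 24 h mutant peak, and the region from 15867097 to 15867351 on 2R through 1 bp of the L3 peak. Just outside, the ChIP-seq peak from 5843016 to 5843269 on 2R touched the end of a 24 h mutant peak without sharing a base, and stood at the 97.6 percentile at L3 and 95.9 at 24 h in the wild type. The peak from 27125542 to 27125769 on 3R touched an L3 peak in the same way, and was near the bottom of both 24 h lists, at 2.41 and 5.64.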

How the data were processed

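FAIRE-seq peaks of 6 conditions, E93 ChIP-seq peaks and genomic DNA reads were used, and 6 RNA-seq samples were not used here. Per the labels, Bowtie2 2.2.8, SAMtools, Picard 2.2.4, bedtools 2.25.0 and MACS2 were among the tools, with dm3 as build; roles and settings are not given in the sources used here. The authors pooled replicates and deposited 1 peak list per condition. In each list the authors' pileup is a coverage signal at the summit, fold enrichment is the authors' ratio over local background (not used), and significance was deposited as −log10 of p and of q for every peak. The deposited control reads carry a mapping score, which was not used; their positions were compared with the peaks.

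Peaks that shared 1 bp or more were matched, taking the highest pileup where several overlapped. A region so takes the height of a FAIRE-seq peak whose summit may lie at a neighbouring region. Percentiles average ties. Shares have exact (Clopper-Pearson) and medians order-statistic intervals, at 95%. The interval of bound minus unbound peaks is approximate and combines the limits of both shares. That of mutant minus wild type takes the number of regions with a 44 h peak in a single genotype as fixed. The regions given by coordinates follow a fixed rule: the highest ChIP-seq pileups, the best worst ranks, the largest shifts from wild-type L3 to 24 h and from wild type to mutant at 24 h, the highest ChIP-seq pileups of each 44 h group, and the smallest overlaps and gaps at the edge of the selection rule. The selection rule and these lists were chosen with earlier results of these data known. The groups 25 points higher or lower, the 4 parts by length and the 10 parts of the ChIP-seq list were chosen after seeing the data. Alternatives are given in the closing section. The overlap code was checked on simulated lists with known answers. Python 3.11.15, numpy 2.4.6, pandas 2.3.3, scipy 1.17.1 and matplotlib 3.10.9 were used.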

Additional observations from a re-analysis of the deposited data

How the results depend on the processing

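No paired analysis was possible because the replicates of a condition come as 1 pooled list, so leaving out a replicate was not possible either. Of 85 values under 11 alternatives, 34 stayed within the 95% interval of the value reported (for a rho, equal to it), 49 left it and 2 turned the direction of bound minus unbound peaks, of which the -0.235 has an interval that spans 0. The intervals are narrow because the regions are many. The small difference of mutant and wild type at unbound peaks was above 0 in 4 alternatives, 0.397 being its value for peaks past a −log10 q limit of 10. The difference of mutant and wild type at 44 h, whose alternatives were chosen after seeing the data, stayed above 0 at bound regions under all of them. All of them kept the 24 h mutant list in the rule. Large arms only moved no value past its interval. The causes were not tested.

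The share of ChIP-seq peaks in the set was 69.8% at equal list sizes (22786 strongest peaks), 30.3% for overlaps covering 50% or more of each peak, 55.4% for summits at most 250 bp apart, 89.6% of the strongest 25% of ChIP-seq peaks and 84.6% without the L3 list in the rule. In the same order, the share with a wild-type 44 h peak was 79.4%, 63.6%, 77.0%, 84.0% and 80.9%, and with a mutant 44 h peak 91.4%, 78.4%, 87.2%, 93.3% and 87.6%. In the first 4 of these, the mutant L3 share was 96.2%, 87.6%, 91.2% and 96.4%. For peaks with a −log10 q from 10 up, the 3 shares were 76.9%, 86.0% and 93.5%, and on 2L only the 44 h shares were 80.3% and 88.8%. A peak in all 6 lists was found at 70.1% (−log10 q), 53.0% (50% overlap), 67.7% (summits), 74.0% (2L) and 80.4% (strongest ChIP-seq peaks). The median ChIP-seq percentile was 53.5 (−log10 q), 57.5 (equal sizes) and 69.9 (50% overlap), and the 24 h percentile 84.7 (−log10 q), 80.2 (equal sizes), 81.1 (summits) and 90.7 (strongest ChIP-seq peaks). Bound minus unbound shared peaks with a wild-type 44 h peak was 6.90 points as reported, -3.22 (−log10 q), 1.01 (equal sizes), -0.235 (50% overlap) and 3.47 (summits). Mutant minus wild type at 44 h was 9.12 (−log10 q), 12.0 (equal sizes), 14.8 (50% overlap), 10.2 (summits), 8.48 (2L) and 9.32 (strongest ChIP-seq peaks) at bound regions, and 5.04 (equal sizes), 4.12 (50% overlap) and 2.12 (summits) at unbound shared peaks.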
